A study of Saccharomyces cerevisiae with 8 samples.

Results

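Stable unannotated transcripts (SUTs) are noncoding RNAs of budding yeast that accumulate in wild-type cells. The 220 SUTs described here are those of the deposited annotation that share no base with a transcript of an open reading frame (ORF transcript) with a plain systematic name on the opposite strand, out of 500 SUTs and 6030 transcripts in all. The other 280 SUTs lie opposite an ORF transcript, and the annotation also lists 4928 ORF transcripts, 433 XUTs, unstable RNAs that build up when the exonuclease Xrn1 is missing, and 169 CUTs, cryptic RNAs that the nuclear exosome removes. Membership was set by position and name in the annotation, and no counts entered the rule.

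Newly made RNA of Saccharomyces cerevisiae was sequenced in 4 groups of 2 libraries: strains J121 (med7-1002), J20 (med21-1002) and J84 (med10-1002), each with 1 mutant allele of a Mediator subunit gene, and their parent HS1004. Per the labels, all of them, parent included, carry the reporter DHSE-lacZ and the markers hsp82-, ura3, trp1-1 and ade-, further the alleles leu2-3,112 and his3-11,15, the resistance markers can1-100 and cyh2r, and mating type MATa. Cultures grew at 30 °C in YPD to an OD600 of 0.8, and a pulse of 5 mM 4-thiouracil for 6 min put a uracil analogue into RNA made in that window, from which the labelled RNA was purified. The design text asks how mutations of Mediator subunits act on transcription across the genome. Whether the 2 libraries of a group stem from separate cultures is not given in the labels, and the p-values rest on the spread between libraries, which may be technical.

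Mediator is a large coactivator complex through which activators act on RNA polymerase II at promoters, and Med7, Med10 and Med21 belong to its middle module, which connects the head and tail. Many SUTs start in the nucleosome-depleted region that also serves the promoter of a neighbouring gene, and others start behind a gene or run through it from its far end. Most have no assigned function, but some are known to act where they are made: transcription through the promoter or body of a gene can change its chromatin and keep it silent. SUT643, also known as IRT1, is such a case, a noncoding RNA made upstream of the meiotic master regulator IME1.

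The label of the set held only in part. By the RefSeq annotation of build R64, 72 of the 220 members share bases with a coding sequence on the opposite strand, from 79 genes in all. The ORF transcripts that defined the set do not hold these genes. For 8 of the 72 members the opposite gene is annotated as a transcript with a suffixed name, which the rule did not count, and 2 members without an opposite coding sequence also share bases with such a transcript. Apart from these, the genes' own expression was for the most part not counted in these files. A pair of member and opposite gene shared a median of 87.6% of the gene, and 53 of the 79 pairs included the first base of its coding interval. Stray reads from the wrong strand of such a gene and reads of the member cannot be told apart. The remaining 148 members had no opposite sequence annotated as coding, and other features such as pseudogenes were not compared. The 2 subsets are therefore set side by side at the main results.

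In length the members spanned 186 to 2975 nt, with a median of 734.5 nt. Those with an opposite coding sequence had a median of 1167.5 nt and those without one 558.5 nt, against 942.5 nt for SUTs opposite an ORF transcript, 760 nt for XUTs and 1431 nt for ORF transcripts. Of the 220 members, 103 (46.8%) started within 500 nt of the start of a divergent ORF transcript, against 46.8% of the other SUTs, 61.5% of CUTs and 32.8% of all transcripts. A same-strand ORF transcript began within 500 nt after the end of 57 members. An ORF transcript on the same strand shared bases with 14 members, and an XUT on the same strand with 49, so that for these the reads of both cannot be told apart at the shared bases. SUT218 and SUT219 overlap each other on the same strand.

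The DNA around the starts of 6 members is printed because these were the only members that passed the test in all 3 mutants against parent, lower in med7-1002, lower in med21-1002 and higher in med10-1002. Each line gives, 5′ to 3′ on the transcribed strand, 200 bases before the annotated start in lower case and the first 50 transcribed bases in capitals, from the RefSeq genome of build R64. The whole window of SUT219 lies inside SUT218 on the same strand, so its lower-case bases are annotated as transcribed too.

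SUT219 (chrXI:19303-19552, + strand): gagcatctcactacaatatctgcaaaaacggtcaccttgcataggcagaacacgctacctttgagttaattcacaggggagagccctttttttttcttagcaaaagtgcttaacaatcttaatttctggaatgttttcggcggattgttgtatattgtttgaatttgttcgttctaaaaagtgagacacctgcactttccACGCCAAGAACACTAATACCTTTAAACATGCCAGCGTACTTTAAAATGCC
SUT686 (chrXII:114006-114255, - strand): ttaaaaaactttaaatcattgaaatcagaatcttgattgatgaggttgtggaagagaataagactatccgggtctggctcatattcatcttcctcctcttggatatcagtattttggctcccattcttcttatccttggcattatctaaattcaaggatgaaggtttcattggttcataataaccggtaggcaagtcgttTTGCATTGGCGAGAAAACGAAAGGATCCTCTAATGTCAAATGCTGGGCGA
SUT452 (chrII:792003-792252, - strand): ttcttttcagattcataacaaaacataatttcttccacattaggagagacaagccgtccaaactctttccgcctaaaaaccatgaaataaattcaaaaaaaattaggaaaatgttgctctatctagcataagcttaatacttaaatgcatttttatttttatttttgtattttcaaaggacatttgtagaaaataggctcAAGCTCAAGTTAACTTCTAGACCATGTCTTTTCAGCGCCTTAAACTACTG
SUT111 (chrVII:74254-74503, + strand): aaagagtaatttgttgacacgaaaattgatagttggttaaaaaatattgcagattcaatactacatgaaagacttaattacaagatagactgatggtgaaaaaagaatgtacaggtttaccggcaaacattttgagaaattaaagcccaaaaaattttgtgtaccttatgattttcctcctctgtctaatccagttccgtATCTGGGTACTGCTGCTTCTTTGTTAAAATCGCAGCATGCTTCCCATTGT
SUT587 (chrVIII:358076-358325, - strand): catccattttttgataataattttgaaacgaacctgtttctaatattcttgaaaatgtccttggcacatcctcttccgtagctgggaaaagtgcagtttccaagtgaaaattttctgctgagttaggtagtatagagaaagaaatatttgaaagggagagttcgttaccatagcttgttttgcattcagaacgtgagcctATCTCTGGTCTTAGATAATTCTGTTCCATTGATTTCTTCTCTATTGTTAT
SUT176 (chrIX:34966-35215, + strand): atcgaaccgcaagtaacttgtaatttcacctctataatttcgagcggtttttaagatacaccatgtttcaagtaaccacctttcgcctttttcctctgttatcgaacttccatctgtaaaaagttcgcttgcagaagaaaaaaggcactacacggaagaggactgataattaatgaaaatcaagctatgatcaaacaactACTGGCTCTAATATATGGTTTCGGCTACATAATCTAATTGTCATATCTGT

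None of the 6 windows holds the TATA element TATAAA or the core letters TTACCCG of the site bound by the general regulatory factor Reb1, on either strand. In windows of the same 250 bases TATAAA occurred for 36.4% of the 220 members and 39.6% of all transcripts, and TTACCCG for 5.91% of members and 7.99% of all transcripts. GTAG and TCTT are short RNA words read by Nrd1 and Nab3, which end the synthesis of many noncoding RNAs early. Within the first 200 transcribed bases of the 218 members that are long enough, GTAG occurred in 45.0% and TCTT in 76.1%. The same shares were 53.9% and 82.6% for CUTs, 35.7% and 60.2% for ORF transcripts, and 38.1% and 62.6% for all transcripts. The GC content of the members had a median of 36.9%, against 38.3% for all transcripts.

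Reads assigned to transcripts numbered 10962170 and 23629303 in the med7-1002 libraries, 20284344 and 14243200 in med21-1002, 21190842 and 19594321 in med10-1002, and 18409345 and 17595372 in parent (replicate 1, then 2). The med7-1002 libraries stood apart. Their replicates differed with an SD of 0.92 on the log2 scale over all 5746 transcripts tested, against 0.37 in med21-1002, 0.23 in med10-1002 and 0.27 in parent. Over the 159 members tested this SD was 1.78 in med7-1002, 0.57 in med21-1002, 0.36 in med10-1002 and 0.55 in parent. In med7-1002, 84 of the 159 members were over 2-fold apart, where 14.2% of all transcripts were. The members' median difference there (replicate 1 minus 2) was 0.65, against -0.11 for all transcripts. Reads assigned to no transcript made up 49.5% and 37.7% of the med7-1002 files, against 32.7% to 36.3% in the other 6 libraries. The mating-type markers went against the MATa label in the med21-1002, med10-1002 and parent libraries. The URA3 level set med7-1002 apart from the other strains. The lesion of ura3 is not given in the labels, so this level does not check that label. The 4 measured MATalpha markers (of the list MF(ALPHA)1, MF(ALPHA)2, STE3, SAG1 and AFB1) summed to 61.0 and 70.2 CPM (counts scaled to a common library size by TMM) in med7-1002 and to 848 to 1287 CPM in the other 6 libraries. The 6 MATa markers (MFA1, MFA2, STE2, BAR1, AGA2 and ASG7) summed to 484 and 699 CPM in med7-1002 and to 15.9 to 64.5 CPM elsewhere. All 4 MATalpha markers fell and 5 of 6 MATa markers rose in the library pair labelled med7-1002, and URA3, which the labels give as mutant in every strain, was 3.49 higher on the log2 scale there. Of these markers STE2 and URA3 also passed the test in med10-1002, with 58.3 and 56.9 CPM of STE2 and 57.3 and 56.5 CPM of URA3 in med10-1002, against 20.2 and 19.7 CPM of STE2 and 87.8 and 89.8 CPM of URA3 in parent. Each mutant comparison is therefore given with and without these libraries where it can be, and the part of mating type or strain background in the results was not tested. The lesions of the 3 alleles are not given in the labels, so the transcript levels of the mutated genes do not check them.

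Most members were weak. At least 1 read was counted for 161 and 178 members in med7-1002, 182 and 183 in med21-1002, 190 and 192 in med10-1002, and 185 and 186 in parent, and 22 members had no read in any library. The median count per member was 24 and 19.5 in med7-1002, 25.5 and 20 in med21-1002, 41 and 48 in med10-1002, and 35 and 32 in parent. A total of 159 members passed the filter on low counts, 60 with and 99 without an opposite coding sequence. The 61 others never exceeded 39 reads in a library and had a median length of 427 nt.

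By level per length, the strongest members in parent were SUT355, opposite the uncharacterized YOL118C, at 77.7 ± 5.25 CPM per kb, SUT342, opposite the biotin-precursor transporter gene BIO5, at 67.4 ± 2.54, and SUT388 at 60.1 ± 1.13 (SD, n = 2). SUT193 with 59.3 ± 5.42, SUT183 with 52.1 ± 2.06, SUT560 with 50.2 ± 1.57, SUT176 with 49.4 ± 1.08, SUT579 with 46.4 ± 0.0346, SUT459 with 46.4 ± 4.01 and SUT098 with 42.8 ± 1.08 CPM per kb followed. In this order SUT388 and SUT193, then SUT183, SUT560 and SUT176, then SUT579, SUT459 and SUT098 differed from their neighbour by less than the larger of the SDs. The order differed in the mutants: SUT098 had 44.4 ± 12.7 CPM per kb in med7-1002, where SUT176 had 11.4 ± 2.69, and 33.1 ± 0.488 in med10-1002, where SUT176 had 91.8 ± 1.60.

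Taken as a sum, the 220 members held 0.137% and 0.0885% of the assigned counts in med7-1002, 0.178% and 0.182% in med21-1002, 0.375% and 0.402% in med10-1002, and 0.239% and 0.253% in parent. Both med10-1002 libraries lay above, and all 4 med7-1002 and med21-1002 libraries below, both parent libraries. Relative to parent the mean share was 0.458 times in med7-1002, 0.731 times in med21-1002 and 1.58 times in med10-1002. With 2 libraries against 2 the exact permutation test cannot give a two-sided p below 0.333, so none is given. These are shares of assigned reads in bulk cultures, in which less RNA per cell and fewer cells that make it cannot be told apart, and a change of total RNA synthesis does not show. The share of ambiguous reads, those that match more than 1 transcript, moved alongside: 0.0768% and 0.0544% in med7-1002, 0.0987% and 0.112% in med21-1002, 0.181% and 0.193% in med10-1002, and 0.136% and 0.143% in parent. Its part in the result was not tested.

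By mean share the 2 subsets moved by a like ratio in med10-1002 and by unlike ratios in the other strains, where the 2 med7-1002 libraries lay far apart. Members with an opposite coding sequence stood at 0.396 times the parental share in med7-1002, 0.626 times in med21-1002 and 1.58 times in med10-1002. Members without one stood at 0.574, 0.925 and 1.57 times, in the same order of strains. In the single med7-1002 libraries the members with an opposite coding sequence held 0.0758% and 0.0510%, against 0.155% and 0.166% in parent. Those without one held 0.0615% and 0.0375%, against 0.0846% and 0.0879% in parent. For SUTs opposite an ORF transcript the ratios were 0.515, 0.733 and 1.41, for XUTs 0.581, 0.879 and 1.43, and for CUTs 0.903, 0.726 and 0.808. CUTs were thus the noncoding class whose share in med10-1002 lay below that of parent. In med7-1002 CUTs held 0.0488% and 0.0141%, on both sides of the 0.0329% and 0.0368% in parent.

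**Figure D1:**
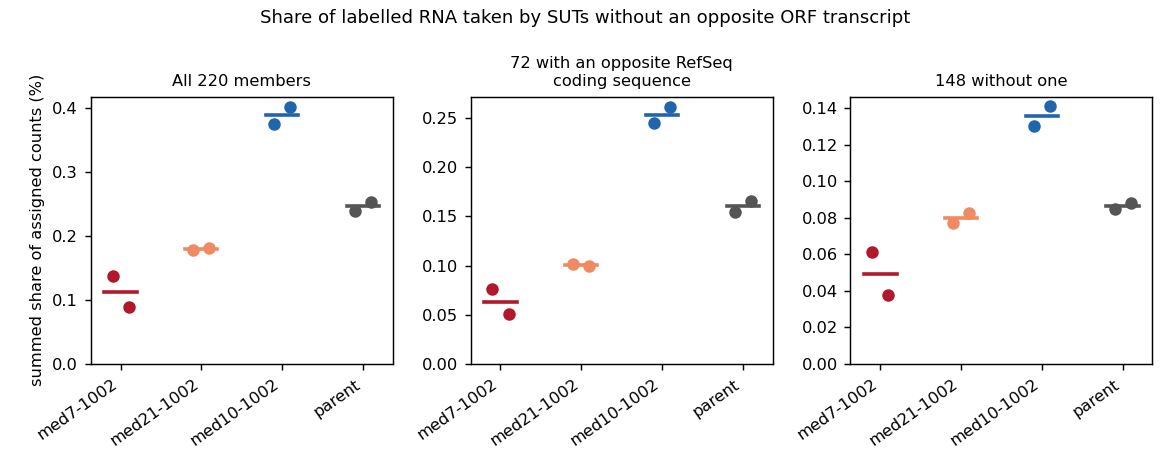
Summed share of assigned counts (percent, vertical axes with a scale of their own in each panel, all from 0) for all 220 members, for the 72 with and for the 148 without an opposite RefSeq coding sequence. Each point is 1 library and each bar the mean of 2; med10-1002 lies above parent in every panel, while in the right panel med21-1002 lies just below parent, at 0.925 times its mean.

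In med7-1002 against parent, 48 of the 159 members tested fell and 1 rose, where 22.6% of all transcripts tested were called lower and 25.9% higher. A called transcript here has an adjusted p under 0.05 in edgeR's quasi-likelihood test, with Benjamini-Hochberg adjustment over all 5746 transcripts. The median log2 fold change of the members was -0.61, against 0.02 for all transcripts. The 2 med7-1002 libraries themselves differed by a median of 0.65 on the log2 scale over the members. Of SUTs opposite an ORF transcript 66 of 219 (30.1%) fell and 4 rose, with a median of -0.52, beside 30.2% of the members that fell. Of the members with an opposite coding sequence 28 of 60 fell, with a median of -0.84, and of those without one 20 of 99 fell, with a median of -0.44. The counts depended on the library left out: 84 members fell and 2 rose without med7-1002 replicate 1, where 29.7% of all transcripts were called lower and 32.4% higher. Without med7-1002 replicate 2, 61 fell and 39 rose, where 34.6% and 33.1% of all transcripts were called. Without parent replicate 1 and 2, 33 and 35 fell, where 14.1% and 17.2% of all transcripts were called lower.

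SUT452 lies opposite SUL1, which encodes a high-affinity sulfate permease, and spans the whole of that gene (chrII:789078-792052). It had 23.0 and 18.3 CPM in med7-1002, against 122 and 128 CPM in parent. It fell 6.10-fold (log2 fold change -2.61, SE 0.16, edgeR adjusted p 1.19e-05).

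SUT292 spans SMA2, a gene needed to form the spore membrane (chrXIII:140416-141632). Its level was 1.41 and 1.03 CPM in med7-1002, against 11.7 and 13.3 CPM in parent, a 10.4-fold fall (log2 fold change -3.38, SE 0.30, edgeR adjusted p 4.31e-05). The divergent gene ERV41, which starts 182 nt away and encodes a protein of vesicles between endoplasmic reticulum and Golgi, rose, with a log2 fold change of 0.54, so that both sides of this shared start region went opposite ways.

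SUT218 and SUT219 follow each other on the left arm of chromosome XI (chrXI:18610-19756 and chrXI:19503-21216). SUT218 had 4.04 and 6.25 CPM in med7-1002 against 32.4 and 34.9 CPM in parent, and fell 6.42-fold. SUT219 had 15.3 and 9.54 CPM in med7-1002 against 57.0 and 56.6 CPM in parent, and fell 4.64-fold. SRY1, a gene for 3-hydroxyaspartate dehydratase that starts 184 nt from SUT218 in the other direction, fell with it, by 1.81 on the log2 scale. The groups did not overlap for either member.

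The other members named for a fall in med7-1002 were SUT034 opposite TAF2, a TFIID subunit gene, at 5.31-fold, SUT459 opposite the alcohol dehydrogenase gene ADH7 at 4.92-fold, SUT176 at 4.32-fold, and SUT726. SUT726 had no read in med7-1002 replicate 1 and 3.89 CPM in replicate 2, against 17.8 and 21.9 CPM in parent. It shares bases with the same-strand transcript of PLB1, and its fold is not given. The single member that rose was SUT444, beside the histone genes HHT1 and HHF1, whose transcript on the same strand it overlaps. It had 4.04 and 0.787 CPM in med7-1002 against 0.106 and 0.386 CPM in parent, and HHT1 rose as well, by a log2 fold change of 3.44.

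In med21-1002 against parent, 14 members fell and 3 rose, where 3.92% of all transcripts were called lower and 3.88% higher. The median log2 fold change was -0.42 over the members and -0.00 over all transcripts. Of the members with an opposite coding sequence 10 of 60 (16.7%) fell and 1 rose, with a median of -0.52. Of those without one 4 of 99 (4.04%) fell, near the share of all transcripts, and 2 rose, with a median of -0.36. Of SUTs opposite an ORF transcript 13 of 219 (5.94%) fell and 1 rose, with a median of -0.46. Without the med7-1002 libraries, whose replicate spread the joint fit shares, 48 of 153 members fell and 8 rose, where 14.9% and 14.8% of all transcripts were called. All 17 calls were among them. In the fit of all groups the number called was 4 without parent replicate 1 or 2, 6 and 5 without med21-1002 replicate 1 and 2, and 10 without either med10-1002 replicate, against 54 and 52 without med7-1002 replicate 1 and 2. The share of all transcripts called lower moved alike, between 0.946% and 2.37% without a library of the other groups and to 14.5% and 14.0% without med7-1002 replicate 1 and 2.

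SUT342 spans BIO5 and had the largest fall among the members called (chrXIV:731322-733352). It had 51.5 and 43.2 CPM in med21-1002, against 133 and 141 CPM in parent, a 2.89-fold fall (log2 fold change -1.53, SE 0.13, edgeR adjusted p 0.000414). Both med21-1002 libraries lay far below both parent libraries, and in med7-1002 the level was 34.9 and 40.5 CPM.

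SUT034, opposite TAF2, stood at 20.6 and 14.2 CPM in med21-1002 against 45.3 and 53.9 CPM in parent, and fell 2.84-fold. SUT452, opposite SUL1, stood at 50.1 and 41.5 CPM in med21-1002 against 122 and 128 CPM in parent, and fell 2.73-fold. SUT024 opposite TYC1, SUT218, SUT459, SUT448 opposite DTR1, a spore wall transporter gene, and SUT560 opposite the peroxisomal ubiquitin-conjugating enzyme gene PEX4 fell by between 2.26-fold and 2.68-fold. All of these had med21-1002 libraries below both parent libraries.

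The 3 members that rose in med21-1002 took different courses elsewhere. SUT053, which overlaps the same-strand transcript of the membrane protein gene MRH1, had 27.4 and 34.5 CPM in med21-1002 against 9.19 and 8.05 CPM in parent, and rose 3.58-fold (log2 fold change 1.84, SE 0.23, edgeR adjusted p 0.0018). In med10-1002 it also rose, 2.33-fold, and in med7-1002 its level of 5.89 and 7.62 CPM lay below parent without passing the test. At the shared bases the reads of SUT053 and of MRH1 cannot be told apart. SUT738, opposite the glutathione transferase gene GTO3, had 15.5 and 12.7 CPM in med21-1002 against 4.73 and 6.56 CPM in parent, and rose 2.49-fold. SUT193 had 133 and 137 CPM in med21-1002 against 79.7 and 90.7 CPM in parent, and rose 1.59-fold. SUT193 was also the only member called lower in med7-1002 and higher in med21-1002, with 39.7 and 49.9 CPM in med7-1002.

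In med10-1002 against parent the direction was the other way: 25 of 159 members rose and 0 fell, where 4.93% of all transcripts were called higher and 2.63% lower. At an unadjusted p under 0.05 in edgeR 51 members were higher and 2 lower, where 13.2% of all transcripts were higher and 11.9% lower. DESeq2's Wald test called 41 members higher and 0 lower, where it called 9.86% of all transcripts higher and 5.86% lower. The median log2 fold change was 0.60 over the members and -0.01 over all transcripts. Of SUTs opposite an ORF transcript 32 of 219 (14.6%) rose and 1 fell, with a median of 0.30, beside 15.7% of the members that rose. The rise was shared by both subsets, with 12 of 60 members with and 13 of 99 without an opposite coding sequence called, and medians of 0.68 and 0.57. Without the med7-1002 libraries 78 of 153 members rose and 7 fell, where 20.8% and 16.0% of all transcripts were called, and all 25 calls were among them. In the fit of all groups the number called was 1 without parent replicate 1 or 2, 2 and 3 without med10-1002 replicate 1 and 2, 20 and 21 without med21-1002 replicate 1 and 2, and 80 without either med7-1002 replicate. The share of all transcripts called higher in these fits was between 0.396% and 2.92% without a library of the other groups and 19.0% and 18.7% without med7-1002 replicate 1 and 2. With the med7-1002 libraries left out as well, 51 to 81 members rose when any 1 further library was removed, where 9.78% to 26.3% of all transcripts were called higher.

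**Figure D2:**
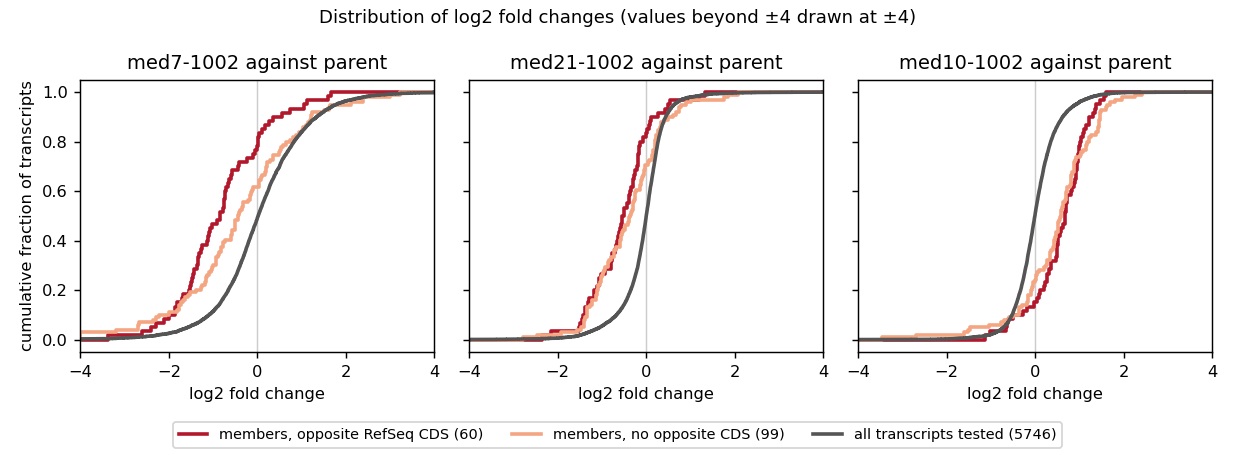
Cumulative fraction of transcripts (vertical axis) against log2 fold change (horizontal axis) for 60 members with and 99 without an opposite RefSeq coding sequence and for all 5746 transcripts tested. Around the middle of the range the members' curves lie left of all transcripts in med7-1002 and med21-1002 and right of them in med10-1002, where their medians are 0.68 and 0.57 against -0.01.

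SUT643 (IRT1) showed the largest rise (chrX:605915-607171). It had 14.2 and 14.7 CPM in med10-1002 against 2.44 and 2.92 CPM in parent, a 5.37-fold rise (log2 fold change 2.42, SE 0.41, edgeR adjusted p 0.0111). Both med10-1002 libraries were far above both parent libraries. In med21-1002 it had 3.61 and 3.45 CPM and in med7-1002 6.50 and 3.05 CPM, and neither difference from parent passed the test. Set directly against med10-1002, its log2 fold change was -1.61 in med7-1002 and -2.03 in med21-1002 (edgeR adjusted p 0.00776 and 0.00979). SUT643 was named for its rise in these same med10-1002 libraries, so these p-values are not an independent check of it.

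IME1, the transcription factor gene that starts meiosis, begins 102 nt after the end of SUT643 on the same strand. It had 11.5 and 12.3 CPM in med10-1002 against 14.8 and 18.5 CPM in parent, a log2 fold change of -0.48 that did not pass the test (edgeR adjusted p 0.26). In med7-1002 IME1 had 6.68 and 5.16 CPM and fell by 1.50 on the log2 scale (edgeR adjusted p 0.00137).

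SUT430, near the right end of chromosome XVI (chrXVI:928692-930998), had 20.8 and 22.2 CPM in med10-1002 against 5.79 and 5.24 CPM in parent, and rose 3.89-fold. The same-strand gene YPR196W, which encodes a protein like the maltose activators, begins 349 nt further on and rose in med10-1002 too, to 103 and 102 CPM against 41.5 and 40.5 CPM in parent. The pair rose together, by 1.96 and 1.32 on the log2 scale.

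SUT281, opposite FBP1, the gluconeogenic fructose-1,6-bisphosphatase gene, had 29.5 and 24.2 CPM in med10-1002 against 9.14 and 8.60 CPM in parent, and rose 3.03-fold. Its levels of 9.23 and 9.10 CPM in med7-1002 and 9.47 and 8.20 CPM in med21-1002 overlapped those of parent. Set directly against med10-1002, its log2 fold change was -1.55 in med7-1002 and -1.60 in med21-1002 (edgeR adjusted p 0.000426 and 0.00197). SUT281 too was named for its rise in the same med10-1002 libraries, so these are not an independent check.

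SUT592 opposite ROF1, a regulator gene of filamentous growth, rose 2.95-fold, SUT717 2.69-fold, SUT186 opposite PRM2 2.59-fold, SUT573 opposite YHL042W and ECM34 2.49-fold, and SUT111 2.40-fold. SUT592 was also above parent in med21-1002, with 36.6 and 39.0 CPM against 13.5 and 19.7 CPM, without passing the test. SUT717 shares bases with the same-strand transcript of FPR3, a nucleolar prolyl isomerase gene.

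**Figure D3:**
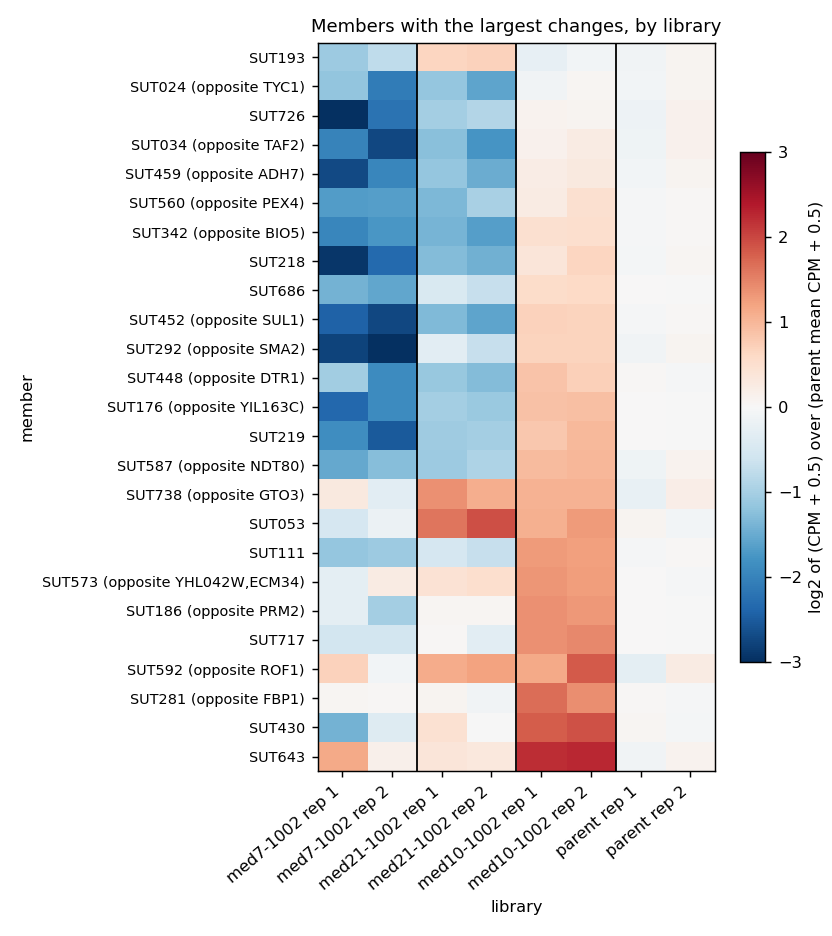
Log2 of (CPM + 0.5) in each library over (mean parent CPM + 0.5) for the 25 members named for the largest changes or called in all 3 mutants, sorted by the fold change in med10-1002. Columns are libraries, blue is below and red above the parent mean; SUT193, SUT053, SUT738 and SUT592 are red in med21-1002, where most other members are blue or near white.

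The 3 comparisons share the parent libraries, so their calls are set side by side here without a test of overlap. By call, 6 members were lower in med7-1002, lower in med21-1002 and higher in med10-1002. A further 8 were lower in med7-1002 and med21-1002 only by call, 11 were lower in med7-1002 and higher in med10-1002, 22 were called in med7-1002 alone as lower and 7 in med10-1002 alone as higher, and 101 were not called in any. No member was called in the same direction in all 3 mutants. Taken 1 comparison at a time, 22.6% and 3.92% of all transcripts were called lower in med7-1002 and med21-1002, and 4.93% higher in med10-1002. The share of all transcripts with each joint pattern is not given here, so these counts are a description. By sign alone, lower, lower and higher held for 70 of the 159 members tested, where it held for 15.3% of all transcripts. Among the 6, SUT176 spans the uncharacterized YIL163C and ends 53 nt before the transcript of SUC2, the invertase gene (chrIX:35166-37293). It had 20.1 and 28.2 CPM in med7-1002, 51.7 and 48.5 CPM in med21-1002, 193 and 198 CPM in med10-1002, and 107 and 104 CPM in parent. The 4 groups did not overlap, and the log2 fold changes against parent were -2.11, -1.07 and 0.89. SUC2 itself passed the test in none of the 3, with log2 fold changes of 0.25, -0.04 and 0.41.

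SUT587 runs opposite NDT80, the transcription factor gene of middle meiosis, across 83.1% of the gene and over its first base (chrVIII:356456-358125). It had 13.4 and 16.0 CPM in med7-1002, 18.4 and 20.5 CPM in med21-1002, 77.2 and 79.6 CPM in med10-1002, and 36.4 and 42.8 CPM in parent. The groups again did not overlap, with log2 fold changes of -1.42, -1.03 and 0.98 (edgeR adjusted p 0.000131, 0.00499 and 0.00774). SUT111 (chrVII:74454-76538), which ends 315 nt before VRG4, an essential Golgi nucleotide-sugar transporter gene, had 16.2 and 16.9 CPM in med7-1002, 25.9 and 22.6 CPM in med21-1002, 89.4 and 87.4 CPM in med10-1002, and 35.8 and 37.7 CPM in parent. VRG4 rose in med7-1002, by a log2 fold change of 1.21, where SUT111 fell by 1.15.

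With pseudogenes not compared, SUT686 (chrXII:112192-114055) has no opposite coding sequence and no ORF transcript within 500 nt in any of the orientations compared. It stood at 18.4 and 16.7 CPM in med7-1002, 36.4 and 30.8 CPM in med21-1002, 72.9 and 75.9 CPM in med10-1002, and 50.01 and 49.91 CPM in parent. SUT452 and SUT219 completed the 6, with log2 fold changes of 0.68 and 0.90 in med10-1002. Without the med7-1002 libraries all 6 were called lower in med21-1002 and higher in med10-1002.

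By the order of the libraries, both med10-1002 libraries lay above both parent libraries for 106 of the 159 members, where 37.6% of all transcripts tested did. Both med21-1002 libraries lay below both parent libraries for 86 members, against 31.9% of all transcripts, and both med7-1002 libraries for 81 members, against 35.9%. All 3 of these orders held for 42 members (26.4%), where they held for 7.38% of all transcripts. They also held for 22.4% of SUTs opposite an ORF transcript. Of the 42 members, 31 were among the 60 with an opposite coding sequence (51.7%) and 11 among the 99 without (11.1%).

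A direct comparison of 2 mutants uses the parent libraries only through the spread that all libraries of the fit share. In med21-1002 against med10-1002, 55 members were lower and 1 higher, where 10.6% of all transcripts were called lower and 9.38% higher, and the median log2 fold change was -1.08. Of the members with an opposite coding sequence 38 of 60 were lower, and of those without one 17 of 99, with medians of -1.16 and -1.02. Without the med7-1002 libraries the same comparison gave 90 lower and 4 higher, where 24.9% and 22.4% of all transcripts were called. In the fit of all groups the number called was 31 and 22 without med21-1002 replicate 1 and 2, 25 and 26 without med10-1002 replicate 1 and 2, 44 and 39 without parent replicate 1 and 2, and 94 without either med7-1002 replicate. The share of all transcripts called lower was 3.44% to 7.05% without a library of the other groups, and 23.3% and 22.5% without med7-1002 replicate 1 and 2. SUT193 was the 1 higher, with 133 and 137 CPM in med21-1002 against 72.1 and 79.9 CPM in med10-1002. SUT326, opposite the hypothetical membrane protein genes YNL194C and YNL195C, was lower, with 7.21 and 4.61 CPM in med21-1002 against 27.0 and 25.7 CPM in med10-1002, a 4.43-fold difference (edgeR adjusted p 0.00255).

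In med7-1002 against med10-1002, 79 members were lower and 1 higher, where 25.0% of all transcripts were called lower and 29.9% higher, and the median was -1.20. Of the members with an opposite coding sequence 43 of 60 were lower, and of those without one 36 of 99, with medians of -1.46 and -0.93. Without med7-1002 replicate 2 this became 91 lower and 29 higher, where 36.4% of all transcripts were called lower and 34.96% higher. In med7-1002 against med21-1002, 35 were lower and 4 higher, where 18.6% and 22.1% of all transcripts were called, and the median of -0.21 was small beside the spread of these libraries. The members with an opposite coding sequence had a median of -0.41 and the others 0.08. For med7-1002 against med21-1002 the number called was 71 and 106 without med7-1002 replicate 1 and 2, and 19 and 27 without med21-1002 replicate 1 and 2. In the same order of fits 23.6%, 34.3%, 9.34% and 12.8% of all transcripts were called lower. SUT652, opposite the carboxylate permease homologue gene MCH2, was among the 4 higher, but its level of 26.3 and 4.03 CPM in med7-1002 differed widely between replicates, against 1.25 and 0.948 CPM in med21-1002. SUT279, SUT683, SUT426, SUT505, SUT173 and SUT737, which had large fitted folds between mutants, never exceeded 131 reads in a library, and their folds are not given.

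The opposite genes of several members are known as ones that yeast growing in rich medium keeps off, which was for the most part not measured here. By the rule, a coding gene can lie opposite a member only where the annotation holds no plain-named ORF transcript. Of the RefSeq protein-coding genes, 1181 are not among the ORF transcripts. The kind of gene opposite the members is thus partly set by the rule and is not a result about them. Meiosis and sporulation genes (NDT80, SPO22, RIM4, DTR1, SMA2, SPO13, ZIP2, REC114, MER1, HOP1, PCH2, SPS2 and DMC1) lie opposite 13 members. This group was put together after the values were seen, so its counts are a description. Of the 11 tested, 7 fell in med7-1002, 2 fell in med21-1002 and 3 rose in med10-1002, where 22.6% and 3.92% of all transcripts were called lower and 4.93% higher. Among all 60 tested members with an opposite coding sequence, 28 fell in med7-1002, 10 fell in med21-1002 and 12 rose in med10-1002, with medians of -0.84, -0.52 and 0.68. The log2 fold changes of the 11 had medians of -1.11, -0.40 and 0.88 and ranged from 0.28 to 1.46 in med10-1002.

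SUT574 spans RIM4, which encodes an RNA-binding repressor of translation in meiosis. It also shares bases with the same-strand transcript of YHL023C, where the reads of both cannot be told apart. SUT574 had 52.0 and 70.5 CPM in med7-1002, 77.1 and 85.5 CPM in med21-1002, 175 and 178 CPM in med10-1002, and 95.3 and 88.7 CPM in parent. SUT183 covers 51.1% of SPO22, a meiosis gene, and had 23.2 and 34.2 CPM in med7-1002, 66.3 and 60.9 CPM in med21-1002, 137 and 130 CPM in med10-1002, and 86.3 and 81.6 CPM in parent. Both fell in med7-1002 and rose in med10-1002, and neither passed the test in med21-1002.

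Genes of mating and the pheromone response lie opposite 4 members, also grouped after the values were seen. SUT204 opposite FAR1, the cyclin-dependent kinase inhibitor that arrests cells before mating, had 18.5 and 21.8 CPM in med7-1002, 30.3 and 23.7 CPM in med21-1002, 53.1 and 57.7 CPM in med10-1002, and 33.3 and 35.1 CPM in parent. Of the 4 (opposite FAR1, PRM1, PRM2 and PRM10), 2 fell in med7-1002 and 2 rose in med10-1002, where 22.6% of all transcripts were called lower and 4.93% higher. In med7-1002 these values move with the mating-type markers given above, and the part of mating type was not tested.

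Length went with the size of the change. In med10-1002 against parent the median log2 fold change was 0.09 for the 31 members of up to 500 nt, 0.54 for the 64 of over 500 to 1000 nt and 0.85 for the 64 over 1000 nt. Of the 25 members called, 24 were over 1000 nt and 1 was of over 500 to 1000 nt. In the same order of lengths 253 of 3870 and 30 of 1557 of all transcripts were called higher. For SUTs opposite an ORF transcript these were 30 of 117 and 2 of 79. Longer transcripts collect more reads at a like level, and the part of read number in these calls was not tested. SUTs opposite an ORF transcript had medians of -0.41, 0.11 and 0.64 over the same lengths, and ORF transcripts -0.33, -0.14 and 0.01. At each length the members' median thus lay above that of ORF transcripts in med10-1002. In med7-1002 the members' medians were -0.10, -0.23 and -0.96, and those of ORF transcripts 1.25, 0.66 and -0.08, so that fold change went with length in ORF transcripts as well. In med21-1002 the members' medians of -0.56, -0.41 and -0.40 changed little with length. The members over 1000 nt with an opposite coding sequence had medians of -1.19 in med7-1002, -0.56 in med21-1002 and 0.82 in med10-1002 (40 members), and those without one -0.85, -0.14 and 0.87 (24 members). Each subset held 12 of the members over 1000 nt called in med10-1002. With 5 members of up to 500 nt that had an opposite coding sequence, the median in med10-1002 was -0.62, below that of ORF transcripts. With length corrected in the fit, the members' median was 0.69 in med10-1002.

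**Figure D4:**
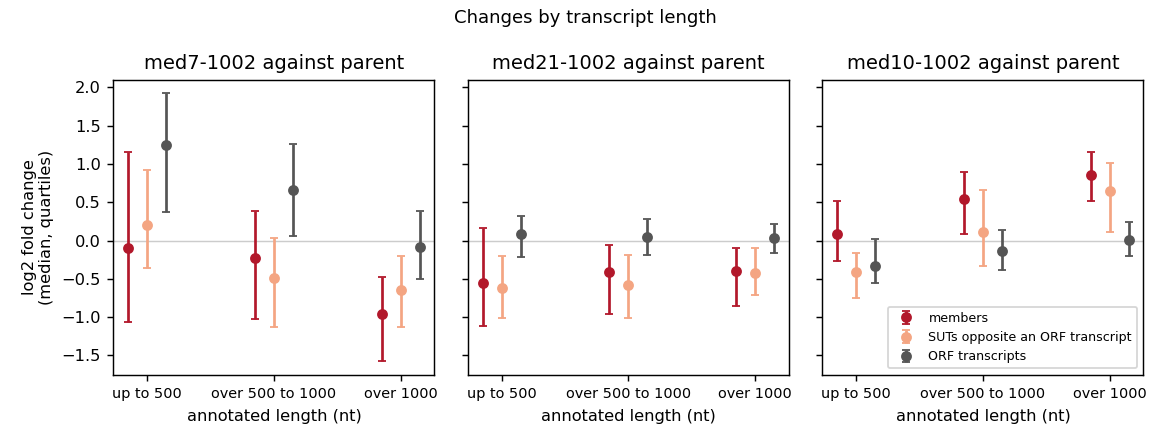
Median log2 fold change with quartiles (vertical axis) by annotated length (horizontal axis) for members, for SUTs opposite an ORF transcript and for ORF transcripts. In med10-1002 the members' medians are 0.09, 0.54 and 0.85 from short to long, each above the median of ORF transcripts.

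Members that share a start region with a gene could be set beside it, and in 69 divergent pairs both partners were tested. The ORF partners had median log2 fold changes of 0.06 in med7-1002, 0.05 in med21-1002 and 0.08 in med10-1002, where the members in these pairs had -0.60, -0.40 and 0.67. In the 21 pairs whose member had an opposite coding sequence the members' medians were -0.78, -0.40 and 0.68, and in the 48 others -0.37, -0.49 and 0.54. Across the 69 pairs Pearson's r between the partners was 0.24, 0.17 and -0.03, and Spearman's rho 0.16, 0.09 and -0.06, as a description over pairs that share libraries. In med10-1002, 6 members and 4 partners of the 69 pairs were called, where 4.93% of all transcripts were called higher and 2.63% lower. No pair held both, which with so few calls does not show whether the partners go together. In med7-1002, 16 members and 34 partners were called, where 25.9% of all transcripts were called higher and 22.6% lower. There 7 pairs were called in the same direction and 4 in opposite directions, SUT218 with SRY1 and SUT292 with ERV41 among them.

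**Figure D5:**
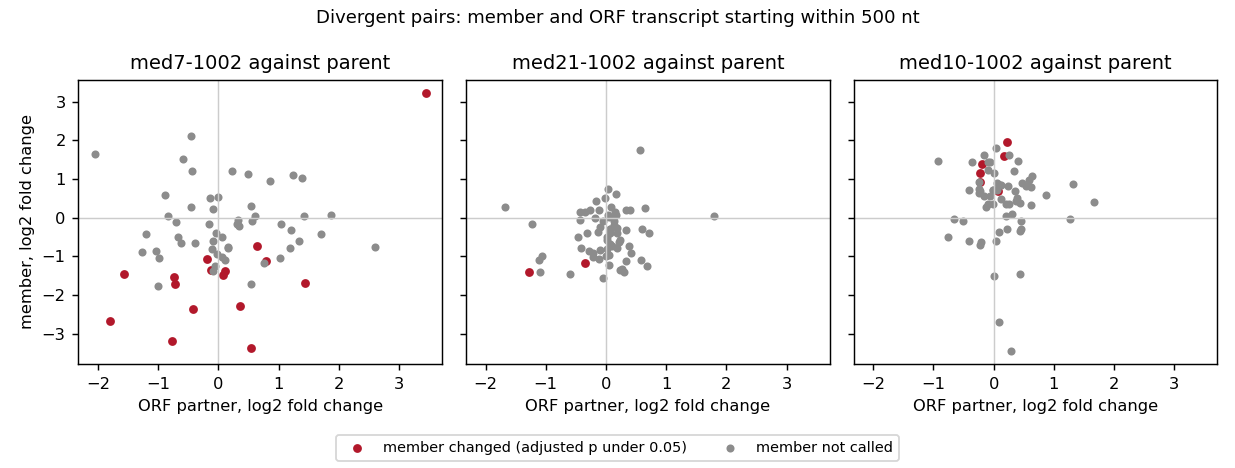
Log2 fold change of the member (vertical axis) against that of the ORF transcript starting within 500 nt in the other direction (horizontal axis), 69 pairs, with called members in red. The points of med10-1002 lie mostly above the horizontal zero line and near the vertical one, with medians of 0.67 for members and 0.08 for partners.

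For 43 members that end within 500 nt before a same-strand gene, both were tested. The genes had median log2 fold changes of 0.02 in med7-1002, 0.02 in med21-1002 and 0.21 in med10-1002, and the members -0.78, -0.55 and 0.68. The 14 members of these with an opposite coding sequence had medians of -0.91, -0.67 and 0.65, and the 29 others -0.78, -0.53 and 0.69. Pearson's r across these pairs was 0.01, 0.11 and 0.13, and Spearman's rho 0.01, 0.08 and 0.07. In med10-1002, 7 of these members and 3 of the genes were called, where 4.93% of all transcripts were called higher and 2.63% lower. SUT430 with YPR196W was the 1 pair in which both were called. In med7-1002, 14 of these members and 28 of the genes were called, where 25.9% of all transcripts were called higher and 22.6% lower. There 4 pairs were called in the same and 4 in opposite directions, SUT111 with VRG4 and SUT560 with the prohibitin gene PHB1 among the opposite ones.

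Genes that limit noncoding transcription were looked at as a list of 38 genes for RNA decay (RRP6, DIS3 and others), early termination (NRD1, NAB3 and others) and chromatin (SET2, HTZ1, REB1 and others), of which 32 were measured. In med7-1002, 5 were called higher and 9 lower, where 25.9% and 22.6% of all transcripts were called, with a median of -0.03. RCO1, a gene of a histone deacetylase complex that acts in gene bodies, fell by 1.34 on the log2 scale, and HTZ1, the gene of the histone variant H2A.Z, rose, with a log2 fold change of 1.03. In med21-1002 HTZ1 rose, with a log2 fold change of 0.53 (edgeR adjusted p 0.0399), and was the single call, while SET1 had -0.39 (edgeR adjusted p 0.125). In med10-1002 0 of the 32 were called by edgeR, 3 had an unadjusted p under 0.05 and DESeq2 called 1. NAB3 had a log2 fold change of -0.46 there and RLF2 -0.72 (edgeR adjusted p 0.0795 and 0.172). The part of these genes in the members' changes was not tested.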

How the data were processed

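Labelled RNA of 8 libraries (4 groups of 2) was analysed from raw read counts per transcript, which the authors deposited as 1 file per library beside a shared transcript annotation. The submitters' processing notes name STAR 2.3.0, SAMtools and HTSeq as tools and sacCer3 and R64 as builds. The sources used here do not give the strand setting or the counting mode. Spike-in counts were not analysed here. Reads assigned to no transcript or to several were kept out of library sizes and of every test.

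The counts were fitted with edgeR 4.0.16 in R 4.3.3. Libraries were scaled by TMM, and filterByExpr (minimum count 10) kept 5746 of 6030 transcripts. All 8 libraries entered 1 quasi-likelihood fit by group, with 4 residual degrees of freedom. Adjusted p-values (Benjamini-Hochberg) span all transcripts tested, and one under 0.05 makes a call. The fit was tested on simulated counts. Alternatives were DESeq2 1.42.0, other scalings, no filter, fewer groups, libraries or members, a length correction and a replicate block. Depth was 10962170 to 23629303 assigned counts per library, so a weak member rests on few reads. Opposite coding sequences and printed DNA came from RefSeq's R64 annotation and genome, and neighbours within 500 nt from the deposited transcripts.

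A member was named if it was called, if its log2 CPM averaged 2 or more, and if both libraries of the mutant lay beyond both of parent, up to 8 per direction and mutant by fold. Also named were the 10 strongest per kb in parent, 3 per direction for each pair of mutants, the divergent ORF partners of named members, and the 2 smallest adjusted p of the RNA decay list per mutant. The members and lists were chosen with earlier results of these data known. SUT574, SUT204, SUT587, SUT686, SUT444, the opposite meiosis and mating genes, and the downstream genes IME1, YPR196W, SUC2, VRG4 and PHB1 were named after their values were seen.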

Additional observations from a re-analysis of the deposited data

Results flagged for a closer look

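The mutants were set against each other by a direct test of the difference. In med7-1002 against med21-1002, 4 members were higher and 35 lower, where 22.1% of all transcripts were called higher and 18.6% lower, so that the share of members called lower lay near that of all transcripts. In med7-1002 against med10-1002, 1 was higher and 79 lower, where 29.9% and 25.0% of all transcripts were called. In med21-1002 against med10-1002, 1 was higher and 55 lower, where 9.38% and 10.6% were called. By their calls against parent, 17 members were lower in med7-1002 and higher in med10-1002, and 6 were lower in med21-1002 and higher in med10-1002. Each call by itself was made for 22.6% (lower in med7-1002), 3.92% (lower in med21-1002) and 4.93% (higher in med10-1002) of all transcripts. The share of all transcripts with both calls is not given here. Both calls of such a member rest on the same parent libraries, and these opposite calls chose the members, so their difference was not tested further.

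Outside the counted transcripts, reads assigned to no transcript made up 49.5% and 37.7% of the med7-1002 files, against 32.7% and 33.5% in parent. Ambiguous reads made up 0.181% and 0.193% of the med10-1002 files, against 0.136% and 0.143% in parent.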

How the results depend on the processing

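The direction of the members' median against parent was the same under every alternative run. The 41 named values were recomputed 798 times, 0 reversed, 123 no longer passed the test, and 675 stayed on their side of the threshold. How many members were called depended on the libraries in the fit. DESeq2 called 41 in med10-1002 against parent. With only the 2 groups compared, 29 members were called in med7-1002, 38 in med21-1002 and 91 in med10-1002 against parent, 19 in med7-1002 against med21-1002, and 92 in med21-1002 against med10-1002, whose median became -1.14. The share of all transcripts called moved as well, in med10-1002 against parent to 26.6% higher and 26.2% lower. Without the med7-1002 libraries 56 were called in med21-1002 and 85 in med10-1002 against parent, and 94 between them. There 14.8% of all transcripts were called higher and 14.9% lower in med21-1002, 20.8% and 16.0% in med10-1002, and 22.4% and 24.9% between them. The replicate numbers did not pair the libraries. With a replicate block 16 were called in med10-1002, where 2.70% of all transcripts were called higher and 0.818% lower. A length correction moved the median of med10-1002 against parent to 0.69 and of med7-1002 against med10-1002 to -1.52. With that correction and without med7-1002, an alternative chosen after seeing the data, 61 were called in med21-1002, 87 in med10-1002 with a median of 0.68, and 100 between them. Of all transcripts 17.4% were called higher and 17.2% lower in med21-1002, 21.8% and 20.1% in med10-1002, and 26.3% and 25.9% between them. The cause of these moves was not tested.

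Among the 99 tested members without an opposite RefSeq coding sequence, 21 were called in med7-1002, 6 in med21-1002 and 13 in med10-1002 against parent. By direction, 20.2% were lower in med7-1002, 4.04% lower in med21-1002 and 13.1% higher in med10-1002. Of all transcripts 22.6%, 3.92% and 4.93% were called in these directions. Between mutants the calls were 18 in med7-1002 against med21-1002, 36 in med7-1002 against med10-1002, and 18 in med21-1002 against med10-1002. Lower were 17.2%, 36.4% and 17.2% of these members, and 18.6%, 25.0% and 10.6% of all transcripts. The median became -0.36 in med21-1002 against parent and -1.02 in med21-1002 against med10-1002, and it reversed to 0.076 in med7-1002 against med21-1002. Their shares were 0.0495%, 0.0798%, 0.135% and 0.0863% in med7-1002, med21-1002, med10-1002 and parent. Without members that share a same-strand ORF transcript the median of med21-1002 against parent was -0.48, and the shares were 0.160% in med21-1002, 0.352% in med10-1002 and 0.227% in parent. Without the strongest member they were 0.175%, 0.369% and 0.232%. Of all reads in the file the shares were 0.0621%, 0.116%, 0.253% and 0.164% in med7-1002, med21-1002, med10-1002 and parent.

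Leaving out 1 library at a time, also with the med7-1002 libraries left out (chosen after seeing the data), gave 33 to 100 calls and medians of -1.10 to -0.38 in med7-1002 against parent, 4 to 57 and -0.56 to -0.39 in med21-1002, and 1 to 92 and 0.59 to 0.73 in med10-1002. Between mutants it gave 19 to 106 calls and -0.72 to 0.00024 for med7-1002 against med21-1002, which reversed without med7-1002 replicate 2, 59 to 120 and -1.70 to -0.96 for med7-1002 against med10-1002, and 22 to 98 and -1.16 to -1.06 for med21-1002 against med10-1002. The shares of single libraries were 0.0885% to 0.137%, 0.178% to 0.182%, 0.375% to 0.402% and 0.239% to 0.253% in med7-1002, med21-1002, med10-1002 and parent. A group left with 1 library is assumed to vary like the others.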
